A study of Arabidopsis thaliana with 9 samples.

Results

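Expression of 5 genes of auxin synthesis and conjugation was followed in Arabidopsis thaliana root tips of mutants in 3 or 4 genes for HD-ZIP III transcription factors. The 5 genes were taken by name, as the ATH1 probe sets annotated to 1 gene each, and each had 1 such probe set, so 5 of the 22746 probe sets tested are described. They are YUC2 (AT4G13260), WES1 (AT4G27260, also called GH3.5), GH3.1 (AT2G14960), IAGLU (AT4G15550) and UGT74D1 (AT2G31750). RNA came from the last 0.5 mm of the primary root, 4 days after germination, from untreated seedlings, with about 200 hand-cut tips pooled in each replicate and 3 biological replicates for each genotype. The quadruple mutant carried cna-2, phb-13, rev-6 and a phv allele that the labels write both as phv-6 and as phv-11 (its titles write phb1 for phb-13), and its homozygotes were picked from segregating plants by their radial cotyledons. The triple mutant had the alleles cna-2, phb-13 and phv-11 alone, and no such picking is described for it. Wild type was Col er-2, and whether the mutants also carry er-2 is not given in the sources used here.

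Auxin (indole-3-acetic acid) sets cell division and patterning in the root tip, and its free level depends on synthesis, transport and inactivation. YUC2 encodes a flavin monooxygenase that makes auxin from indole-3-pyruvate. WES1 and GH3.1 belong to the GH3 family of acyl acid amido synthetases, which join auxin to amino acids and are known as early auxin-induced genes, and WES1 also accepts salicylic acid. IAGLU and UGT74D1 encode UDP-glucosyltransferases that attach glucose to auxin as an ester, and UGT74D1 also acts on oxidised auxin. HD-ZIP III factors are known for their part in vascular patterning and organ polarity.

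The amide-conjugating gene WES1 and the ester-conjugating genes UGT74D1 and IAGLU differed in opposite directions between the mutants. GH3.1, also amide-conjugating, stood on the side of the ester-conjugating genes without a call (log2 change -0.33, quadruple against triple mutant). In quadruple compared with triple mutants, WES1 was 1.62-fold higher, UGT74D1 was 1.62-fold lower and IAGLU was 1.34-fold lower. IAGLU was also 1.48-fold higher in the triple mutant than in wild type. YUC2 and GH3.1 passed the test in none of the 3 comparisons, and the quadruple mutant against wild type gave no call among the 5. A gene passed where limma, fitted over all 9 arrays and all probe sets, gave a Benjamini-Hochberg adjusted p under 0.05. Each of the 4 calls ended in at least 3 of the 9 fits that left out 1 array. Those fits, like the main fit, did not pair arrays by replicate number. In pooled tissue, fewer cells of a type and less RNA per cell cannot be told apart.

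Signals are log2 values from 1 probe set per gene, so levels are compared between genotypes and not between genes. Array medians lay between 5.91 and 5.95 in the quadruple mutant, between 5.92 and 5.95 in the triple mutant and between 5.79 and 5.89 in wild type. The hybridization spike-in controls, over 18 probe sets, averaged 9.94 to 10.02 on quadruple-mutant, 10.16 to 10.29 on triple-mutant and 9.83 to 10.07 on wild-type arrays, so all 3 triple-mutant arrays lay above the other 6. Their part in the differences of the 5 genes was not tested. Replicate arrays correlated across probe sets at 0.995 to 0.997 for the quadruple mutant, 0.994 to 0.997 for the triple mutant and 0.990 to 0.994 for wild type. Precision is limited by there being 3 arrays per genotype.

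**Figure D1:**
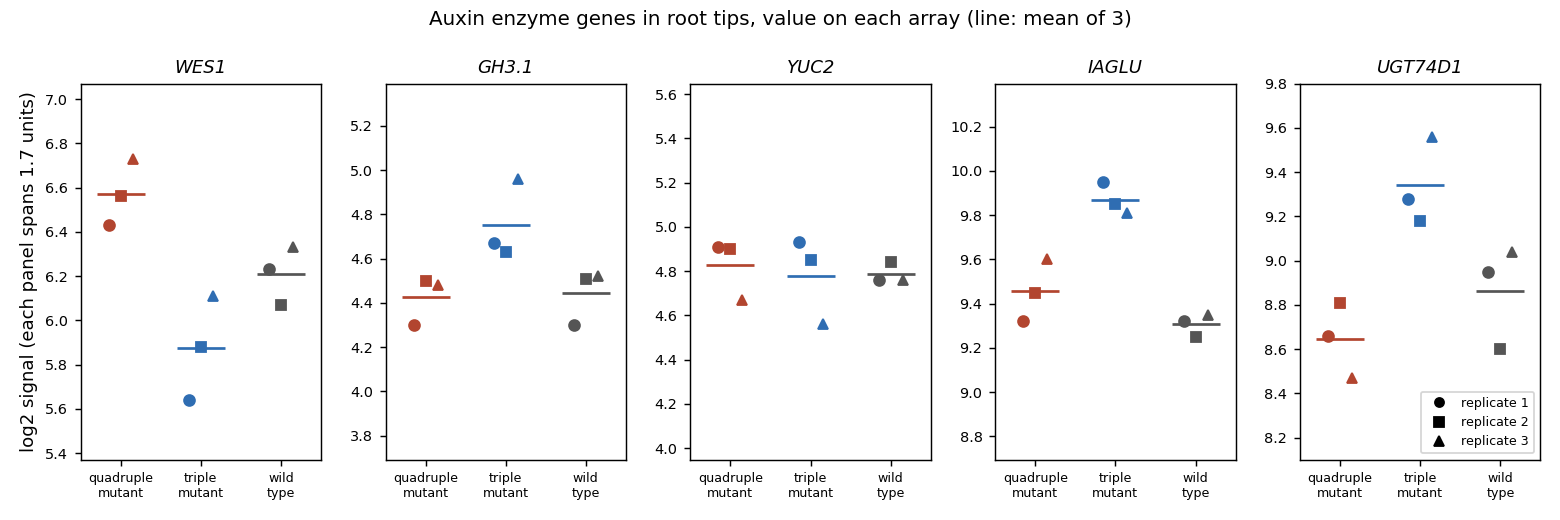
Log2 signal of the 5 genes on each of the 9 arrays. Points are arrays, with a symbol for each replicate number, horizontal lines are genotype means (n = 3), and every panel spans the same number of log2 units. The quadruple-mutant WES1 values (6.43 to 6.73) lie above all triple-mutant values (5.64 to 6.11), whereas for IAGLU and UGT74D1 the triple-mutant values (9.81 to 9.95 and 9.18 to 9.56) lie highest.

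YUC2, the synthesis gene, showed no call. Its log2 signal was 4.91, 4.90 and 4.67 in quadruple-mutant replicates 1 to 3, 4.93, 4.85 and 4.56 in the triple mutant, and 4.76, 4.84 and 4.76 in wild type. The 3 genotypes overlapped, and replicate 3 was the lowest array in both mutants. The quadruple mutant stood 0.05 above the triple mutant in log2 units (SE 0.11, adjusted p = 0.965 by limma), with a 95% interval of the fold from 0.869 to 1.23. Against wild type the log2 change was 0.04 in the quadruple mutant (SE 0.11, adjusted p = 0.929 by limma) and -0.01 in the triple mutant (SE 0.11, adjusted p = 0.982 by limma). The 95% intervals of the fold against wild type lay between 0.835 and 1.23. The YUC2 signals stood under the array medians, and no detection call was used here. The sign of these small differences depended on the setting: against wild type the quadruple mutant stood at -0.05 after median centring of the arrays.

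WES1 was the 1 gene of the 5 called higher in quadruple than in triple mutants. Its log2 signal was 6.43, 6.56 and 6.73 in the quadruple mutant, 5.64, 5.88 and 6.11 in the triple mutant, and 6.23, 6.07 and 6.33 in wild type. All 3 quadruple-mutant arrays lay above every other array, while triple-mutant replicate 3 overlapped wild type. Means were 6.57 ± 0.15 in the quadruple mutant, 5.88 ± 0.24 in the triple mutant and 6.21 ± 0.13 in wild type (SD, n = 3 each). Against the triple mutant, WES1 rose by 0.70 log2 units in the quadruple mutant (SE 0.13, adjusted p = 0.0243 by limma). Same-numbered arrays differed by 0.80, 0.68 and 0.62, so the difference had the same sign in 3 of 3 pairs. The call ended without quadruple-mutant replicate 1, 2 or 3 (adjusted p = 0.0566, 0.0929 and 0.0966) and without triple-mutant replicate 1 or 2 (adjusted p = 0.0943 and 0.0796), with log2 changes of 0.58 to 0.77 in these fits.

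The wild-type mean of WES1 stood between those of the mutants, and neither step was called. The quadruple mutant stood 0.36 above wild type in log2 units (SE 0.13, adjusted p = 0.491 by limma, unadjusted p = 0.0204), with groups that did not overlap. The triple mutant stood at -0.33 against wild type (SE 0.13, adjusted p = 0.301 by limma, unadjusted p = 0.0294). The sign of each was kept after quantile normalization (0.26 for the quadruple and -0.44 for the triple mutant) and after median centring (0.27 and -0.44). Thus the order of the levels was quadruple mutant, wild type, triple mutant, with only the first and last of these different past the threshold.

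GH3.1, also of the GH3 family, had its highest mean in the triple mutant, where WES1 had its lowest. Its log2 signal was 4.30, 4.50 and 4.48 in the quadruple mutant, 4.67, 4.63 and 4.96 in the triple mutant, and 4.30, 4.51 and 4.52 in wild type. The triple-mutant arrays lay above the other 6, and the quadruple mutant and wild type overlapped. The log2 change was -0.33 in the quadruple against the triple mutant (SE 0.11, adjusted p = 0.247 by limma) and 0.31 in the triple mutant against wild type (SE 0.11, adjusted p = 0.258 by limma). Neither passed, and the unadjusted p values were 0.0155 and 0.0199. Median centring put the triple mutant at 0.21 against wild type. Between the quadruple mutant and wild type the log2 change was -0.02 (SE 0.11, adjusted p = 0.976 by limma), with an interval of the fold from 0.83 to 1.18. As for YUC2, every GH3.1 value lay under the array medians.

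IAGLU was the gene with 2 calls. Its log2 signal was 9.32, 9.45 and 9.60 in the quadruple mutant, 9.95, 9.85 and 9.81 in the triple mutant, and 9.32, 9.25 and 9.35 in wild type. The triple-mutant arrays lay above all others, and the quadruple mutant overlapped wild type through its replicate 1. Means were 9.46 ± 0.14 in the quadruple mutant, 9.87 ± 0.07 in the triple mutant and 9.31 ± 0.05 in wild type (SD, n = 3 each). Against wild type, IAGLU rose by 0.57 log2 units in the triple mutant (SE 0.09, adjusted p = 0.0153 by limma), with same-numbered differences of 0.64, 0.60 and 0.46. This call ended without triple-mutant replicate 1 (adjusted p = 0.0762), triple-mutant replicate 2 (0.0530) or wild-type replicate 2 (0.0590), where the log2 change was 0.53, 0.58 and 0.54. It also ended without the 3 arrays numbered 3 (log2 change 0.62, adjusted p = 0.0519). After median centring the call was kept at a smaller log2 change of 0.47 (adjusted p = 0.0434 by limma).

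Against the triple mutant, IAGLU fell in the quadruple mutant, its log2 change being -0.42 (SE 0.09, adjusted p = 0.0494 by limma), just inside the threshold. Same-numbered arrays differed by -0.63, -0.41 and -0.21. The call was lost in all 9 fits without 1 array, where the log2 change lay between -0.49 and -0.35 and the adjusted p between 0.0503 and 0.210. It was also lost after median centring (-0.40, adjusted p = 0.0596), in a fit of the 6 mutant arrays alone (-0.42, adjusted p = 0.0729) and without the 3 arrays numbered 3 (-0.52, adjusted p = 0.0592). The quadruple mutant stood 0.15 above wild type (SE 0.09, adjusted p = 0.632 by limma), with an interval of the fold from 0.962 to 1.28.

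UGT74D1 had the largest fall of the 5 genes in the quadruple against the triple mutant. Its log2 signal was 8.66, 8.81 and 8.47 in the quadruple mutant, 9.28, 9.18 and 9.56 in the triple mutant, and 8.95, 8.60 and 9.04 in wild type. The mutants did not overlap, while wild type overlapped the quadruple mutant through its replicate 2. Means were 8.64 ± 0.17 in the quadruple mutant, 9.34 ± 0.19 in the triple mutant and 8.86 ± 0.23 in wild type (SD, n = 3 each). The log2 change in the quadruple against the triple mutant was -0.70 (SE 0.14, adjusted p = 0.0348 by limma), with same-numbered differences of -0.62, -0.38 and -1.09. The call held when wild-type replicate 2 or 3 was left out and was lost with any other array left out. Leaving out quadruple-mutant replicates 1 to 3 in turn gave adjusted p of 0.125, 0.0690 and 0.133, triple-mutant replicates 1 to 3 gave 0.108, 0.0592 and 0.104, and wild-type replicate 1 gave 0.0519. Without the 3 arrays numbered 3 the log2 change was -0.50 (adjusted p = 0.162).

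Against wild type UGT74D1 had no call. The triple mutant stood 0.48 above wild type in log2 units (SE 0.14, adjusted p = 0.160 by limma, unadjusted p = 0.00752), with groups that did not overlap. After median centring the triple mutant stood 0.38 above wild type. The quadruple mutant stood at -0.22 (SE 0.14, adjusted p = 0.645 by limma). Both glucosyltransferases thus had their highest mean in the triple mutant, but the lowest mean was in wild type for IAGLU and in the quadruple mutant for UGT74D1, steps that did not pass the threshold.

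**Figure D2:**
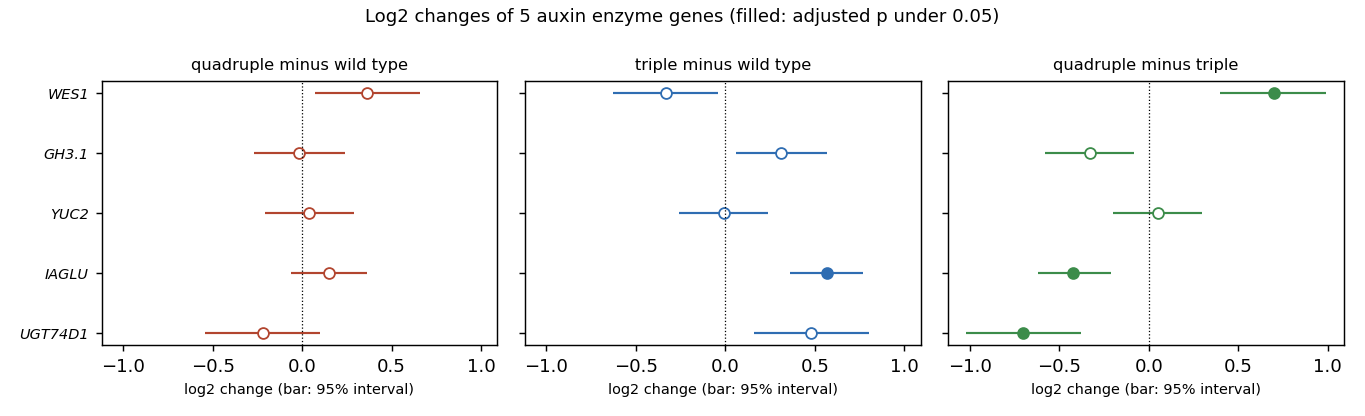
Log2 change of each gene in the 3 comparisons. Points are limma estimates, bars their 95% intervals (unadjusted for the number of probe sets), and filled points have an adjusted p under 0.05. WES1 (0.70), IAGLU (-0.42) and UGT74D1 (-0.70) are filled between the mutants, IAGLU (0.57) between the triple mutant and wild type, and none between the quadruple mutant and wild type.

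Over the 5 genes, 1 was higher and 2 were lower in the quadruple against the triple mutant, where 0.554% of all probe sets were higher and 1.66% lower, 2.22% in all. In the triple mutant against wild type 1 of 5 was higher and 0 lower, against 1.48% higher and 0.246% lower, 1.73% in all. In the quadruple mutant against wild type limma called 0 of 5, against 0.044% of all probe sets, 0.022% higher and 0.022% lower. At an unadjusted p under 0.05 stood 4 of the 5 between the mutants, against 10.9% of all probe sets, 4 in the triple mutant against wild type, against 13.5%, and 1 in the quadruple mutant against wild type, against 9.39%. The 5 were named with earlier results of these arrays known, so these counts are not independent evidence. The median log2 change of the 5 was -0.33 between the mutants, against 0.03 over all probe sets, 0.31 in the triple mutant against wild type, against -0.02, and 0.04 in the quadruple mutant against wild type, against 0.00.

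Groups did not overlap for 4 of the 5 genes between the mutants, 1 higher and 3 lower, where 8.93% of all probe sets were higher and 7.61% lower without overlap. Between the triple mutant and wild type 3 of 5 were higher and 0 lower without overlap, against 7.89% and 7.06% of all probe sets. Between the quadruple mutant and wild type 1 of 5 was higher and 0 lower, against 7.61% and 5.17%. An F-test over the 3 genotype means, added after the data were seen, called 2.08% of all probe sets and 1 of the 5 genes. That gene was IAGLU (limma adjusted p = 0.0233), while WES1 and UGT74D1 stood at 0.0549 and 0.0702, GH3.1 at 0.291 and YUC2 at 0.964. Both comparisons with the triple mutant share its 3 arrays, and both with wild type share the wild-type arrays, so the comparisons are not independent of each other.

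**Figure D3:**
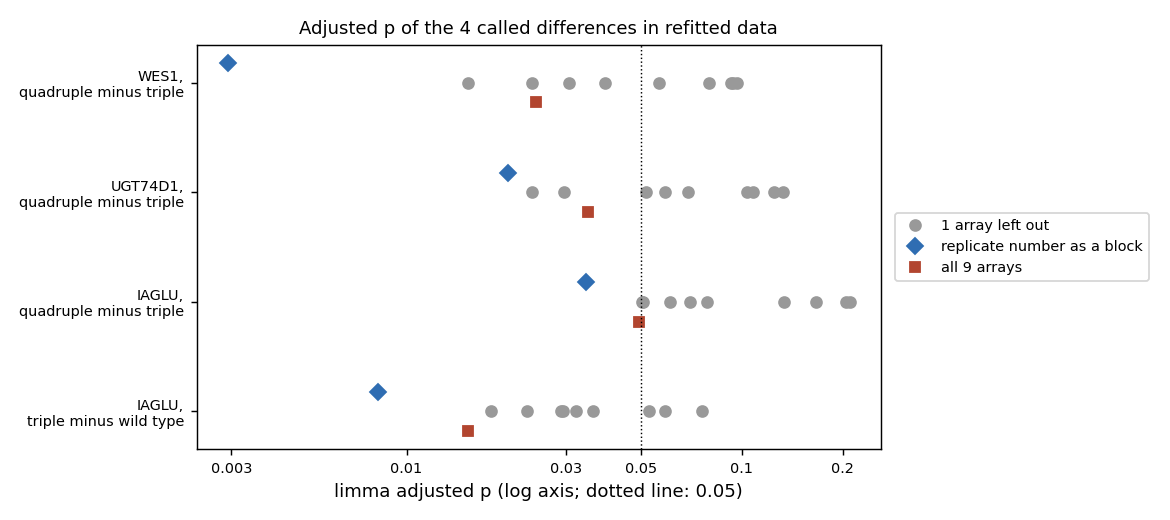
Limma adjusted p, on a log axis, of the 4 called differences when data are refitted. Squares are the fit of all 9 arrays, circles the 9 fits that each left out 1 array, diamonds the fit with the replicate number as a block, and the dotted line the threshold of 0.05. All 9 circles lie past the line for IAGLU between the mutants (0.0503 to 0.210), and the 4 diamonds lie inside it (0.00293 to 0.0344).

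The ratio of WES1 to a glucosyltransferase within an array is not touched by a constant added to all log2 values of that array. It is given as a description. Other rescaling can alter it. Quantile normalization took the change against wild type in the quadruple mutant from 0.36 to 0.26 for WES1 and from 0.15 to 0.13 for IAGLU. Between the mutants WES1 differed in sign from IAGLU, UGT74D1 and GH3.1. A gap between the mutants in these ratios thus restates those differences and is no further evidence. Relative to the wild-type mean, the log2 ratio of WES1 to IAGLU was 0.21, 0.21 and 0.23 in the quadruple mutant, -1.22, -0.88 and -0.60 in the triple mutant, and 0.01, -0.08 and 0.07 in wild type. All 3 genotypes were apart, with the quadruple mutant on top. The ratio of WES1 to UGT74D1 was 0.43, 0.41 and 0.91 in the quadruple mutant, -0.99, -0.65 and -0.79 in the triple mutant, and -0.07, 0.12 and -0.06 in wild type. Here too the genotypes did not overlap. Between the quadruple and the triple mutant the WES1 to IAGLU ratio differed by 2.17-fold and the WES1 to UGT74D1 ratio by 2.63-fold. The ratio of the 2 GH3 genes, WES1 to GH3.1, differed by 2.04-fold, with 0.36, 0.29 and 0.48 in the quadruple mutant, -0.80, -0.52 and -0.62 in the triple mutant, and 0.16, -0.21 and 0.04 in wild type.

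**Figure D4:**
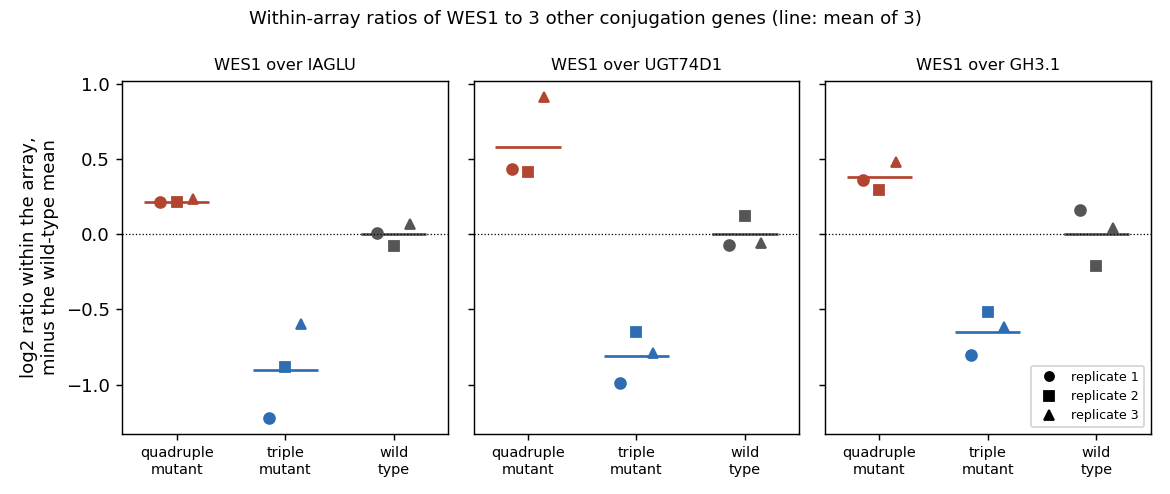
Log2 ratio of WES1 to IAGLU, UGT74D1 and GH3.1 within each array, minus the wild-type mean of that ratio. Points are arrays, with a symbol for each replicate number, and lines are genotype means (n = 3). Quadruple-mutant ratios average 0.21, 0.58 and 0.38 and triple-mutant ratios -0.90, -0.81 and -0.65, with wild type at 0 by construction.

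The other auxin metabolism genes with a listed probe set gave no call in the main fit, which had no block for the replicate number. Of 80 genes on lists of synthesis, GH3 enzymes, ester conjugation and conjugate hydrolysis, 15 had one, and 10 of these were not among the 5 members. Genes called measured are those with a one-gene probe set in the annotation. The others may lie among the 8730 unlisted probe sets or those with several genes, and were not looked up. Among the 10, YUC4, YUC11, GH3.3, GH3.9, UGT84B1 and UGT84B2 had mean log2 signals of only 3.19 to 3.59 over all arrays. These lie far under the array medians, so a missing call says little about these genes. Limma called 0 of the 10 in every comparison, and at an unadjusted p under 0.05 stood 0 of them between the mutants and 1, GH3.17, in each mutant against wild type. Over all probe sets the share was 10.9% between the mutants, 13.5% for triple mutants and 9.39% for quadruple mutants set against wild type, so 1 of 10 is near the background. Their log2 changes ranged from -0.19 to 0.33 between the mutants (median -0.04), from -0.22 to 0.41 in the triple mutant against wild type (median 0.04) and from -0.15 to 0.31 in the quadruple mutant against wild type (median 0.01). Under quantile normalization or median centring, the sign changed for 5 of the 10 in the triple mutant and for 2 in the quadruple mutant against wild type. With a block for the replicate number, GH3.17 passed in the triple mutant against wild type (limma adjusted p = 0.0303).

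GH3.17, an enzyme that joins auxin to glutamate, was the member of the GH3 family nearest to a call among the 10. Its log2 signal was 7.95, 8.25 and 8.34 in the quadruple mutant, 8.22, 8.16 and 8.47 in the triple mutant, and 7.76, 7.81 and 8.05 in wild type. The triple-mutant arrays lay above wild type without overlap, at a log2 change of 0.41 (SE 0.13, adjusted p = 0.186 by limma), and a block for the replicate number gave adjusted p = 0.0303. The quadruple mutant stood 0.31 above wild type (SE 0.13, adjusted p = 0.523 by limma). Of the 5 measured GH3 genes, WES1 alone passed between the mutants, with GH3.3 at -0.12, GH3.9 at 0.06 and GH3.17 at -0.10. The mean log2 signals of GH3.3 and GH3.9 were low, at 3.55 and 3.46.

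Among the synthesis genes, the flavin monooxygenase genes YUC4, YUC6 and YUC11 stood at -0.11, -0.19 and 0.02 between the mutants, with adjusted p of 0.873 or above for the 4 measured YUC genes. YUC6 was the least precise of them, with a 95% interval from -0.74 to 0.36. The glucosyltransferase genes UGT84B1 and UGT84B2 stood at 0.06 and -0.04 between the mutants, and their mean signals over all arrays, 3.44 and 3.59, were far under the array medians. UGT74B1, which acts in glucosinolate synthesis, stood at 0.33 (limma adjusted p = 0.521), opposite in sign to its relative UGT74D1. ILR3, a bHLH transcription factor named for resistance to an auxin conjugate and not a hydrolase, was the 1 measured gene of the hydrolysis list and stood at -0.03.

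**Figure D5:**
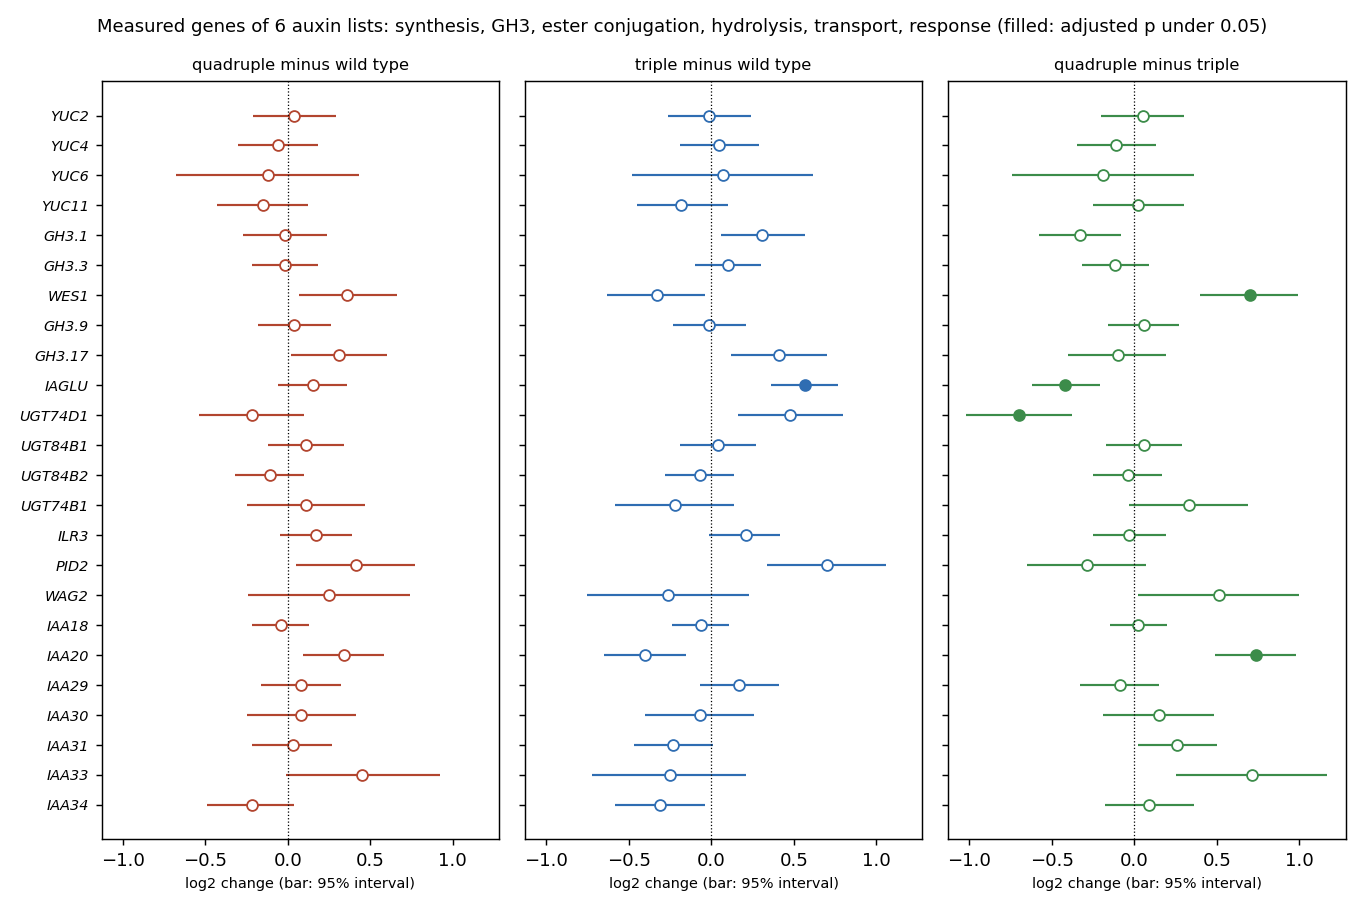
Log2 changes of the 24 measured genes of 6 auxin lists in the 3 comparisons, ordered by role from synthesis at the top through conjugation and transport to response. Points are limma estimates, bars 95% intervals, and filled points have an adjusted p under 0.05. WES1 (0.70) and IAA20 (0.74) are filled to the right between the mutants, IAGLU (-0.42) and UGT74D1 (-0.70) to the left.

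Of 86 genes on the lists of auxin transport and response, 9 had a one-gene probe set in the annotation. Between the mutants 1 was higher and 0 lower, against 0.554% and 1.66% of all probe sets, with 4 at an unadjusted p under 0.05, against 10.9%. The called gene was IAA20, an Aux/IAA repressor, at 6.65, 6.88 and 6.78 in the quadruple mutant, 6.10, 5.95 and 6.06 in the triple mutant, and 6.60, 6.48 and 6.23 in wild type. Its log2 change between the mutants was 0.74 (SE 0.11, adjusted p = 0.00759 by limma), a call that held in all 9 fits without 1 array, and its genotype means stood in the same order as those of WES1. With the replicate number as a block 3 of the 9 were higher between the mutants: IAA20, IAA33 (log2 change 0.71, adjusted p = 0.154, or 0.0390 with the block) and the protein kinase gene WAG2 (0.51, adjusted p = 0.418, or 0.0188 with the block). In the triple mutant against wild type limma called 0 of 9, with 3 at an unadjusted p under 0.05 (13.5% of all probe sets), and 1 was higher with the block, the kinase gene PID2 (log2 change 0.70, adjusted p = 0.0653, or 0.00246 with the block). In the quadruple mutant against wild type limma called 0 of 9, with 2 at an unadjusted p under 0.05 (9.39% of all probe sets).

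IAGLU and UGT74D1 belong to the UDP-glycosyltransferases, of which 48 genes had a listed probe set. Of these 48, 0 were higher and 8 lower in the quadruple against the triple mutant, where 0.554% of all probe sets were higher and 1.66% lower. UGT74D1 and IAGLU had the 7th and 10th lowest log2 changes, with a family median of -0.05. Leaving out any 1 mutant array brought the 8 down to 3 or 4, whereas it was 6 to 9 without a wild-type array. In the triple mutant against wild type 8 were higher and 0 lower, against 1.48% and 0.246% of all probe sets. IAGLU and UGT74D1 had the 8th and 11th highest log2 changes, with a family median of 0.03. That count was 3 or 4 without triple-mutant replicate 1, 2 or 3 or wild-type replicate 2, and 6 to 8 without another array.

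Of 8 markers of the stem-cell niche, 2 had a one-gene probe set in the annotation, AGL42 and BBM. Both were higher in quadruple than in triple mutants, where 0.554% of all probe sets were higher. Their log2 changes were 1.33 (SE 0.15, adjusted p = 0.00149 by limma) and 0.45 (SE 0.09, adjusted p = 0.0353 by limma). The AGL42 call held in all 9 fits without 1 array, and the BBM call ended in 5 of them, without any quadruple-mutant replicate or triple-mutant replicate 1 or 2 (adjusted p up to 0.142). Against wild type neither was called. AGL42 stood 0.70 higher in the quadruple mutant (SE 0.15, adjusted p = 0.203 by limma) and at -0.63 in the triple mutant (SE 0.15, adjusted p = 0.0737 by limma), without overlap in either, so its means stood in the same order as those of WES1. BBM stood 0.60 above wild type in the quadruple mutant (SE 0.09, adjusted p = 0.0947 by limma) without overlap, and 0.15 above it in the triple mutant (SE 0.09, adjusted p = 0.526 by limma) with overlap. The summed signal of AGL42 and BBM on a linear scale was 402 to 435 on quadruple-mutant arrays, 249 to 293 on triple-mutant arrays and 258 to 299 in wild type. BBM made up most of this sum, with a mean log2 signal of 8 against 5.91 for AGL42, so the sum shows little of AGL42. The phloem gene OPS, 1 of 10 listed, had a linear signal of 19.5 to 26.9 on quadruple-mutant arrays, 30.0 to 38.5 on triple-mutant arrays and 22.2 to 25.0 in wild type. Between the mutants OPS stood at -0.61 (SE 0.14, adjusted p = 0.05 by limma), at the threshold and not called. In the triple mutant against wild type OPS stood at 0.53 (SE 0.14, adjusted p = 0.0937 by limma). Groups did not overlap in either. The summed signal of the root-hair genes EXPA7 and EXPA18, 2 of 8 listed, was low throughout, at 28.1 to 28.5 on quadruple-mutant arrays, 27.5 to 28.9 on triple-mutant arrays and 28.4 to 34.3 in wild type. No gene of the root cap, endodermis, xylem or shoot lists had a listed probe set, so those tissues were not analysed here. The part of these tissues in the differences of WES1, IAGLU and UGT74D1 was not tested.

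The genes most like each member over the 9 arrays were taken by Pearson correlation of log2 signals. Candidates were 7201 one-gene probe sets with a mean of at least 5. The list is a description in which the arrays share their genotypes. Its genes were picked on these same arrays, so calls shared with a member can follow from the picking and are no separate evidence. Over 9 arrays the highest r among 7201 candidates can be large by chance, which was not tested. WES1 was closest to AT2G24300 (r = 0.964), AT4G24710 (0.959) and ATMYC1 (0.958), a bHLH transcription factor. Of these, AT4G24710 was called between the mutants (log2 change 0.55, limma adjusted p = 0.00602). IAGLU was closest to AT5G03510 (0.973), XTH19 (0.964), a xyloglucan endotransglucosylase, and AT2G27830 (0.962). All 3 were higher in the triple mutant than in wild type, with log2 changes of 0.68, 0.79 and 2.04 (limma adjusted p = 0.00663, 0.0434 and 0.00219), and the XTH19 call was lost in 8 of 9 fits without 1 array, all but that without quadruple-mutant replicate 3 (adjusted p up to 0.161). UGT74D1 was closest to AT1G54730 (0.954), MGL (0.952), a methionine gamma-lyase, and AT3G07000 (0.949). AT1G54730 and MGL were lower in quadruple than in triple mutants, with log2 changes of -0.81 and -1.47 (limma adjusted p = 0.00841 and 0.00351), and the AT1G54730 call was lost without quadruple-mutant replicate 1 (0.0505).

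GH3.1 was closest to AT1G35780 (0.938), AT5G46910 (0.934) and AT1G68330 (0.934). AT1G68330 was higher in the triple mutant than in wild type (log2 change 0.61, limma adjusted p = 0.0203) and lower in quadruple than in triple mutants (-0.57, limma adjusted p = 0.0235), calls lost in 3 and 5 of the 9 fits without 1 array. The first was lost without triple-mutant replicate 2 or 3 or wild-type replicate 2, the second without any quadruple-mutant replicate or triple-mutant replicate 2 or 3 (adjusted p up to 0.0596 and 0.107). YUC2 was closest to AT5G19590 (0.924), FRO1 (AT5G67590, 0.920) and SPPA (0.906), none of which was called in any comparison, where adjusted p was 0.800 or above.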

How the data were processed

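Root-tip RNA of 3 genotypes was hybridized to 9 one-colour Affymetrix ATH1 arrays, from 250 ng of biotin-labelled RNA each, per the labels' protocols. The deposited values are log2 signals per probe set, made by the authors with Affymetrix Expression Console and RMA, with limma also named, per the submitters' processing notes. Tool versions are not stated there. RMA includes background correction and quantile normalization, so values are relative to the other transcripts, and the log2 scale was read from the values (minima 2.45 to 2.59). The titles number the replicates, and how plants were divided between them is not described, so p-values measure only the spread between these samples.

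Of 22810 probe sets 64 Affymetrix controls were left out. Of the other 22746, 13513 had 1 gene in the platform annotation, 503 had several and 8730 were not listed and stay unnamed. Symbols came from RefSeq's TAIR10.1 annotation through Entrez identifiers, which 77 one-gene probe sets did not match.

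A mean per genotype was fitted over all 9 arrays with limma 3.58.1 in R 4.3.3 (6 residual degrees of freedom), moderated by empirical Bayes, with Benjamini-Hochberg adjustment over all probe sets of a comparison and a threshold of 0.05. The fit was tested on simulated data. Same-numbered arrays were taken as pairs where their deviations from genotype means correlated above 0.1 for every number. The correlations were 0.217 to 0.515 between the mutants, 0.273 to 0.408 between the triple mutant and wild type and 0.0427 to 0.360 between the quadruple mutant and wild type. The first 2 comparisons were thus read as paired, on the titles' numbers and these correlations alone. The pairing entered only the same-numbered differences and the fit with a block for the replicate number. The main fit and all fits that left out arrays had no block, so their adjusted p values are unpaired.

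The members and lists were chosen with earlier results of these data known. Named were the 5 members, the measured genes of 4 auxin metabolism lists, called genes of the transport and response lists, and per member the 3 one-gene probe sets most correlated with it. IAA33, WAG2 and PID2 were named after their values were seen, because the block changed their call. The alternatives tried were a block for the replicate number, another scaling of the arrays (quantile or median), a floor of 5 on the mean log2 signal, a trended and robust prior, array weights, fits of 6 arrays, a 2-fold minimum and each array left out. Leaving out the 3 arrays numbered 3, and the F-test, were added after seeing the data.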

Additional observations from a re-analysis of the deposited data

Results flagged for a closer look

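The hybridization controls, which are spiked into each sample and enter no comparison, were higher on the triple-mutant arrays than on any wild-type array. Their mean log2 signal was at least 10.16 in the triple mutant, against at most 10.07 in wild type, and their part in the values of the auxin genes was not tested.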

How the results depend on the processing

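Of 249 refits of the 15 log2 changes of the 5 genes, 209 kept sign and side of the threshold, 29 lost a call and 11 changed sign. All 11 sign changes were in uncalled values of YUC2 and GH3.1, which a floor of 5 on the mean signal removes, so that setting gave no value for them. Without 1 array, the change between the mutants lay between 0.58 and 0.81 for WES1, -0.78 and -0.59 for UGT74D1, -0.49 and -0.35 for IAGLU and -0.06 and 0.13 for YUC2. In the triple mutant against wild type it lay between 0.53 and 0.60 for IAGLU and -0.09 and 0.10 for YUC2, and in the quadruple mutant against wild type between -0.09 and 0.05 for GH3.1 and -8e-04 and 0.12 for YUC2. Median centring, which moved the median of all probe sets in the triple mutant against wild type to -0.12 (-0.02 as deposited), put IAGLU at -0.40 between the mutants and YUC2 at -0.05 in the quadruple mutant against wild type. IAGLU stood at -0.42 with the 6 mutant arrays alone. Array weights put YUC2 at 0.08 in the triple mutant against wild type and -0.01 between the mutants. Without the 3 arrays numbered 3, IAGLU stood at -0.52 between the mutants and 0.62 in the triple mutant against wild type and UGT74D1 at -0.50 between the mutants, all 3 calls being lost (adjusted p = 0.0592, 0.0519 and 0.162), and YUC2 at 0.09 in the triple mutant against wild type. Fits without arrays have fewer residual degrees of freedom; the other causes were not tested.

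The replicate block changed no call of the 5 genes (WES1 0.70, adjusted p = 0.00293 between the mutants), while calls over all probe sets moved to 1114 between the mutants (504 without the block), 1152 in the triple mutant against wild type (393) and 67 in the quadruple mutant against wild type (10), a comparison whose numbers were not read as pairs. In the same order, the counts were 164, 135 and 5 with a 2-fold minimum. Without the arrays numbered 3 they were 166 for the triple and 2 for the quadruple mutant against wild type, and with 6 arrays 167 and 5. Array weights gave 1663 between the mutants. Leaving out 1 array gave 220 (triple-mutant replicate 1) to 610 (wild-type replicate 3) between the mutants, 182 (triple-mutant replicate 1) to 647 (wild-type replicate 1) in the triple mutant against wild type and 4 (any of 5 arrays) to 59 (wild-type replicate 1) in the quadruple mutant against wild type. The share of calls in the triple mutant that were higher than in wild type was 85.8%, or 67.7% after median centring.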
